A study of Homo sapiens with 4 samples.

Results

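SW1736-PTX, a paclitaxel-selected derivative of the anaplastic thyroid carcinoma cell line SW1736, was compared with SW1736 wt, the untreated line, over all gene names in the deposited abundance files. Values were FPKM (fragments per kilobase, scaled to the mapped total), a level corrected for gene length and library depth. A gene name was compared when it exceeded 0.5 FPKM in at least 1 of the 2 libraries, which left 14202 of 26485 names, against 14692 that passed in at least 1 of the 4 libraries of the series. SW1736-PTX cells had been exposed to paclitaxel in doses raised from 1 nM to 1.5 µM over 6 months and were then kept in 1.5 µM drug, while the wt cells had received none. The other pair of libraries, 8505C wt and 8505C-PTX, came from another anaplastic thyroid carcinoma line that had been selected in the same way, and is used here only to show where the SW1736 pair differs. Each condition was a single library of poly(A) RNA from 1 culture, so no spread between replicates could be measured and no test was possible. Fold changes were calculated as log2((FPKM + 0.1) / (FPKM + 0.1)), PTX over wt, and a gene was called up- or down-regulated beyond a log2 value of 1.5. Where a gene was listed at 0 in a library, its levels are given here without a fold change. Without a line name, wt and PTX are the SW1736 libraries.

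Paclitaxel is a taxane that binds beta-tubulin within the microtubule, stabilizes the polymer and blocks cells in mitosis. Cultures that survive long selection are known to lower the drug's level in the cell, most often through the ABCB1 efflux pump (P-glycoprotein), or to change tubulin composition, drug metabolism or survival signalling. Anaplastic carcinomas arise from the thyroid follicular epithelium, and their lines keep the follicular transcription factors PAX8, FOXE1 and NKX2-1 to different degrees. In the library labelled SW1736-PTX, ABCB1 was at 302 FPKM, while it was listed at 0 in wt. The corresponding levels were 0.363 FPKM in 8505C wt and 497 FPKM in 8505C-PTX.

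The 4 libraries held 43.5 to 57.9 M reads, as estimated from the deposited coverage, and 3 reads on a gene of 1 kb corresponded to 0.0518 to 0.0689 FPKM. Both PTX libraries listed more genes at low levels than both wt libraries. The number of names between 0 and 0.5 FPKM was 3527 in wt and 4570 in PTX, and 3851 in 8505C wt and 4196 in 8505C-PTX. Names listed at 0 numbered 10379 in wt and 8485 in PTX. The part of this excess in the counts of up-regulated genes was not tested. In bulk RNA, fewer cells of a type and less RNA per cell cannot be told apart.

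The library labelled SW1736-PTX stood nearer to both 8505C libraries than to SW1736 wt, and this bears on every result that follows. Over the 14692 names, 3813 (26.0%) lay beyond a log2 difference of 1.5 between SW1736-PTX and SW1736 wt. Against 8505C wt, 2971 names (20.2%) lay beyond this limit, and against 8505C-PTX, 1151 (7.83%) did. For comparison, 8505C wt and SW1736 wt, the untreated lines, differed at 2583 names (17.6%).

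Genes that were either above 5 FPKM or under 0.5 FPKM in every library, and differed between libraries, numbered 240 and formed 13 patterns. The largest pattern held 100 genes that were off in SW1736 wt alone, and the next held 80 genes that were on in SW1736 wt alone. Only 3 genes, DMD, MAPK8IP2 and SULF2, were on in both SW1736 libraries and off in both 8505C libraries, and 5 genes, KRT14, SLC6A15, TIE1, TSSC2 and TUBB2B, showed the opposite pattern. In SW1736-PTX, 6 genes (BTG3, HSPA13, LAMA4, NRIP1, PBDC1 and USP25) were off that were on in the other 3 libraries. Both PTX libraries and neither wt library expressed 22 genes, ABCB1 among them. The short tandem repeat typing described in the study's methods covers the SW1736 and 8505C lines, and typing of the resistant derivatives is not given in the sources used here. Cell identity and genotype were not tested here, and SW1736-PTX stands for the library so labelled.

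**Figure D1:**
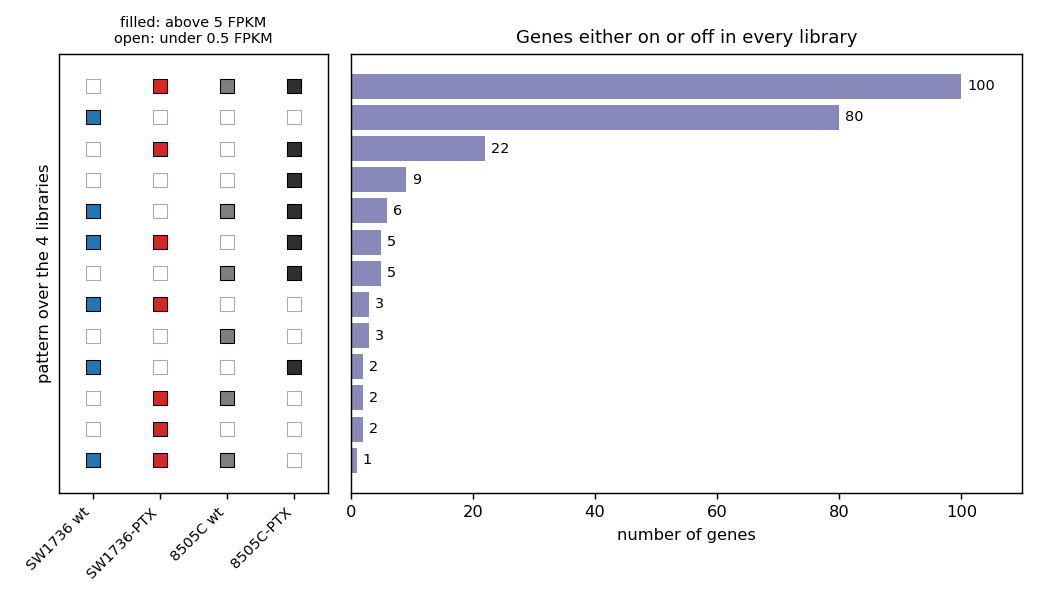
Number of genes (x axis, right) for each pattern of expression over the 4 libraries (rows), with a filled square for a level above 5 FPKM and an open square for a level under 0.5 FPKM. The top bars, 100 and 80 genes, are patterns in which SW1736 wt differs from the other 3 libraries, while the pattern shared by both SW1736 libraries alone holds 3 genes.

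The follicular lineage factors showed the same arrangement. PAX8, which drives thyroglobulin and thyroperoxidase transcription, was at 38.2 FPKM in wt, 0.206 in PTX, 0.123 in 8505C wt and 0.146 in 8505C-PTX. FOXE1, a forkhead factor of thyroid development, was at 26.6 FPKM in wt, 0.511 in PTX, 0.0443 in 8505C wt and 0.178 in 8505C-PTX. NKX2-1, the thyroid and lung homeobox factor also called TTF-1, was listed at 0 in wt and was at 36.3 FPKM in PTX, 30.5 in 8505C wt and 39.0 in 8505C-PTX. For all 3 factors, PTX lay nearer to the 8505C libraries than to wt. The remaining lineage genes compared were not called, and HHEX, another early thyroid factor, was at 12.4 FPKM in wt and 11.7 in PTX. Markers of other cell types did not separate the pair in a single direction. Of 10 fibroblast markers, 5 were compared, with COL1A1, COL1A2 and POSTN down-regulated and COL3A1 and PDGFRB up-regulated, while 2 of 10 leukocyte and 2 of 10 endothelial markers were above 0.5 FPKM. Among these, CD68 was at 5.84 FPKM in wt and 23.6 in PTX, and ROBO4 at 0.0284 and 2.19 FPKM. The part of such markers in the results was not tested.

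Up-regulation was called for 2236 genes (15.7% of those compared) and down-regulation for 1445 (10.2%), together 25.9%. In the 8505C pair, 15.0% of the genes were up-regulated and 5.89% down-regulated, together 20.9%. The median log2 fold change over all compared genes was 0.01, and it was 0.00, -0.01 and 0.02 in short, middle-sized and long transcripts. The directions differed in how often the lower library was listed at 0, which was the case for 640 up-regulated and 149 down-regulated genes. When both libraries had to exceed 0.5 FPKM, 850 genes were up-regulated and 851 down-regulated. Among the increases, 939 (42.0%) lay within 1.5 log2 units of their level in 8505C wt, and among the decreases, 946 (65.5%) did.

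Among genes above 0.5 FPKM in both libraries, the largest increase was that of IFITM2, an interferon-induced membrane protein that restricts virus entry. It was at 0.714 FPKM in wt and 643 in PTX (log2 fold change 9.63), and at 380 FPKM in 8505C wt and 1352 in 8505C-PTX. AKR1C1, an aldo-keto reductase that inactivates progesterone and many carbonyl compounds, went from 0.597 to 120 FPKM (log2 fold change 7.42). In contrast to IFITM2, this enzyme was low in both wt lines, with 1.52 FPKM in 8505C wt and 66.0 in 8505C-PTX. C1QTNF6, a secreted C1q/TNF-related protein, was at 1.73 FPKM in wt and 186 in PTX, above the 34.1 FPKM of 8505C-PTX. NDRG1, a hypoxia- and stress-induced gene, increased from 4.09 to 404 FPKM. Among the next largest increases were those of NTN4 (a netrin, 1.67 to 157 FPKM), FBLN1 (the matrix protein fibulin 1, 3.32 to 262 FPKM), SDPR (now CAVIN2, a caveola coat protein, 1.32 to 102 FPKM), GAS1 (0.544 to 41.0 FPKM), ADM (adrenomedullin, 1.57 to 103 FPKM) and THBD (thrombomodulin, 0.960 to 61.3 FPKM). SDPR was at 173 FPKM in 8505C wt and 160 in 8505C-PTX, so only wt was low for it.

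Among the same genes, above 0.5 FPKM in both libraries, the largest decreases were those of MT1E, a metallothionein, and KRT19, a keratin of simple epithelia. MT1E was at 409 FPKM in wt and 0.679 in PTX (log2 fold change -9.04). KRT19 was at 266 FPKM in wt and 0.535 in PTX (log2 fold change -8.71). Both genes were listed at 0 in both 8505C libraries. MMP14, the membrane-anchored metalloproteinase that activates pro-MMP2, was at 154 FPKM in wt and 0.589 in PTX (log2 fold change -7.81). Here PTX lay below all other libraries, since 8505C wt had 10.7 FPKM and 8505C-PTX 17.3. Next came MYL9, a myosin regulatory light chain (199 to 1.89 FPKM), and both chains of type I collagen, COL1A1 (153 to 2.19 FPKM) and COL1A2 (104 to 1.67 FPKM). They were followed by HKDC1 (a hexokinase domain protein, 41.2 to 0.640 FPKM), FOXE1 and PRICKLE1 (a planar polarity protein, 22.3 to 0.586 FPKM).

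To describe pathways beyond these genes, 46 lists of functionally related genes were followed, and each list is described by its counts and by its median beside the values over all genes (15.7% up, 10.2% down, median 0.01). Some lists are also counted with 8505C wt as the reference, for which 2091 genes were up-regulated and 723 down-regulated over all genes. With SW1736 wt as the reference, the median exceeded 1 in 8 lists and was below -1 in 4. The 4 lowest medians belonged to metallothioneins, replication licensing genes, mitotic genes and G1 regulators, and the highest to galectins and alkaline phosphatases, HOX genes and matrix proteases.

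**Figure D2:**
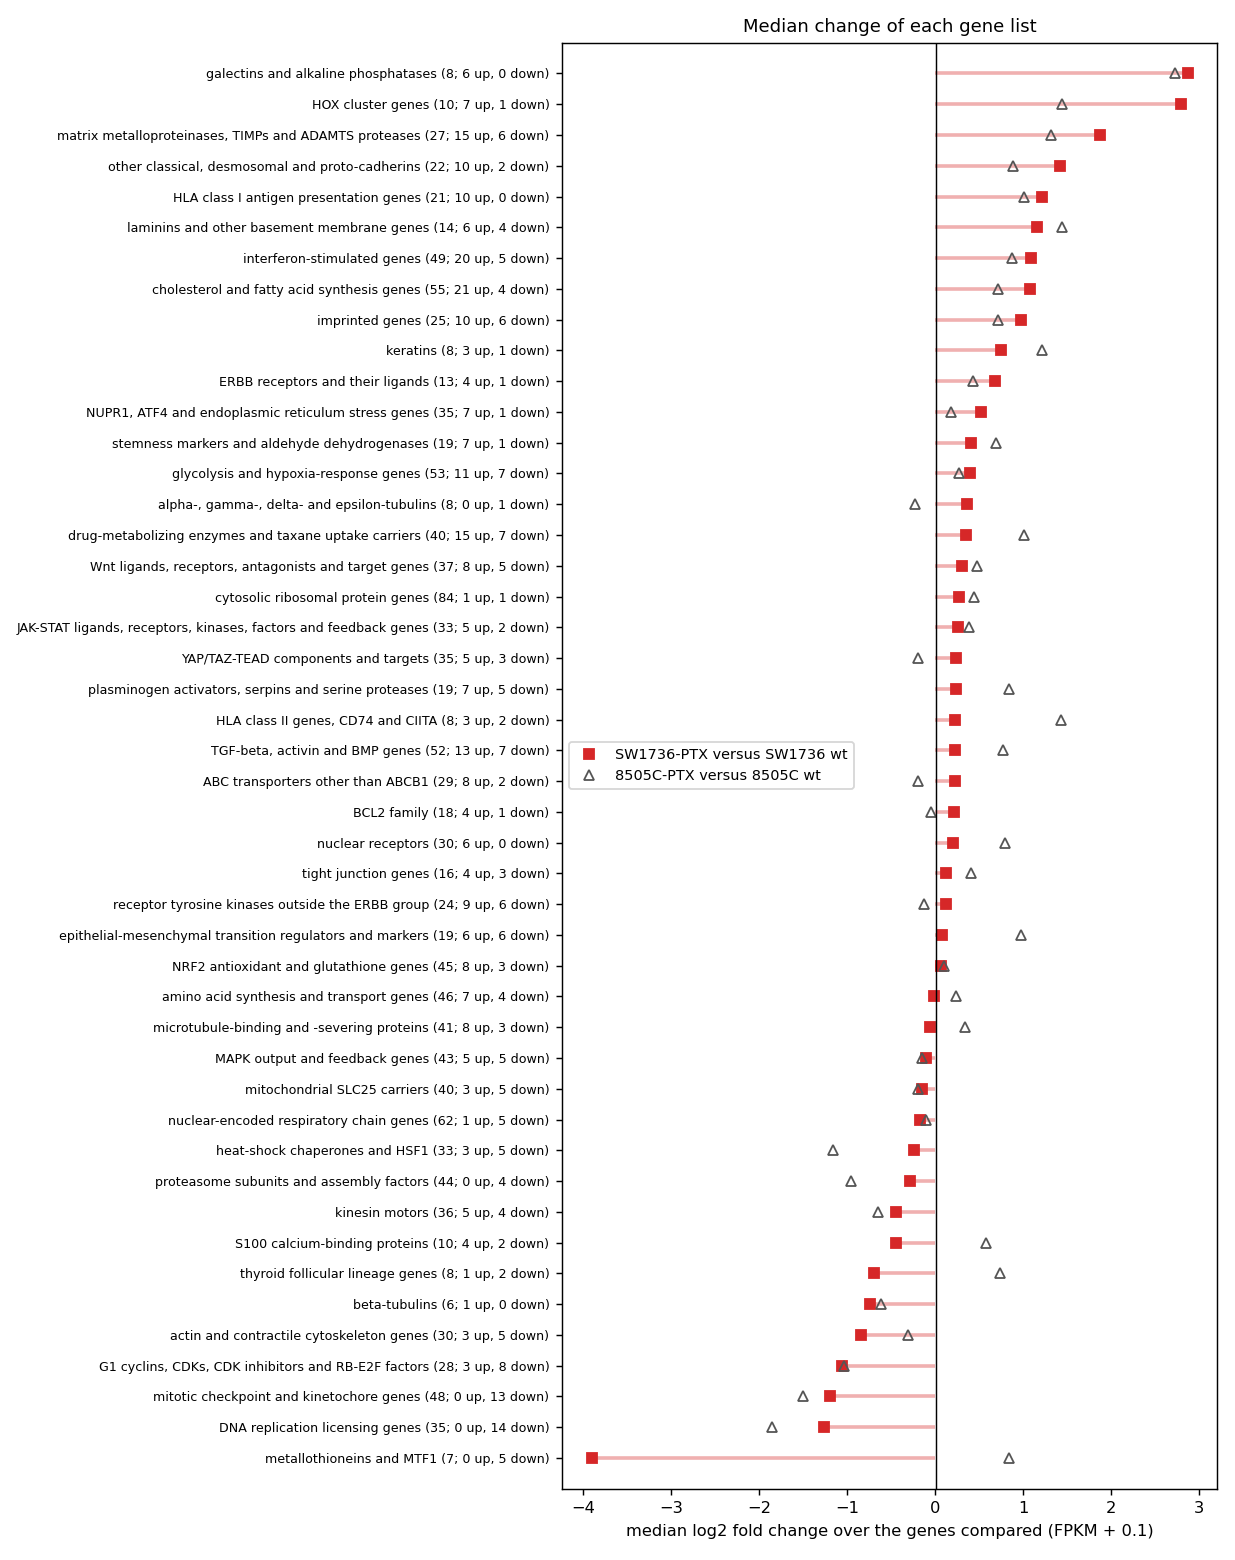
Median log2 fold change (x axis) of each of the 46 gene lists (y axis, with the number of genes compared and the numbers called up and down in SW1736), as filled squares for SW1736-PTX over SW1736 wt and open triangles for 8505C-PTX over 8505C wt. The vertical line marks the median of all genes in SW1736, 0.01, and the metallothioneins, at -3.90, are the list farthest below it.

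Genes of DNA replication licensing, which load and fire the MCM helicase at origins, were at lower levels in PTX than in wt. Of 35 genes compared, 0 were up-regulated, 14 were down-regulated (40.0%, against 10.2% of all genes) and 32 had a negative fold change, with a median of -1.27. The origin recognition subunit ORC5 went from 19.6 to 2.67 FPKM, the initiation factor MCM10 from 25.9 to 3.60 FPKM, the helicase subunit MCM7 from 237 to 35.5 FPKM and the helicase cofactor GINS2 from 57.1 to 10.4 FPKM. These falls were of similar size, with log2 fold changes from -2.83 for ORC5 to -2.45 for GINS2. By contrast, the origin-licensing inhibitor GMNN was not called, at 28.7 and 15.9 FPKM, and neither was the kinase subunit DBF4, at 17.2 and 19.3 FPKM. In the 8505C pair, 22 of the 35 genes were down-regulated and 1 was up-regulated, with a median of -1.86. With 8505C wt as the reference for PTX, 17 licensing genes were down-regulated and 0 up-regulated, so decreases in this list were found with either wt library.

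Licensing genes are known targets of E2F factors, and 1 region upstream of MCM7 is therefore shown as an example. Of 3 MCM7 start sites with an upstream window of 250 bases, the one shown is the only one with a match, and the other two windows held 0. It spans chr7:100101398-100101647 on the minus strand (RefSeq, GRCh38.p14) and is printed 5′ to 3′ with the E2F motif TTTNGCGC in capitals.
MCM7: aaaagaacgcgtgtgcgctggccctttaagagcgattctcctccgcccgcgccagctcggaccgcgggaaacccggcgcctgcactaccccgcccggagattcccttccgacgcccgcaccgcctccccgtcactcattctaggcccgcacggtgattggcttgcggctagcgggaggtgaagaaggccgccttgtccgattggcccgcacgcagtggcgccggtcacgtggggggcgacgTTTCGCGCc
This motif, searched on both strands, was found once in this window, directly before its start site. Of 32 licensing genes with a promoter entry, 9 had it in the 250 upstream bases of at least 1 start site. These were MCM6, MCM7, CDT1, GMNN, ORC6, POLA1, POLA2, POLE and RFC1. Of all 35116 promoters, each start site counted singly, 1.51% held it, so this share and the count of genes are in unlike units. Of these 9 genes, MCM7 and ORC6 (35.3 to 7.79 FPKM, named after its values were seen) were the 2 that were down-regulated, while RFC1 was at 13.8 FPKM in wt and 21.4 in PTX. A match describes the letters in the window and not a bound site.

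Mitotic checkpoint and kinetochore genes behaved alike, with 0 of 48 up-regulated, 13 down-regulated and a median of -1.19. The largest falls were at kinetochore components, namely CENPI (16.8 to 2.42 FPKM), CENPU (20.9 to 3.55 FPKM) and SPC25 (45.4 to 8.58 FPKM), and at the CDK phosphatase CDC25A (10.8 to 2.06 FPKM). The spindle checkpoint kinase BUB1B was not called, at 27.8 and 14.8 FPKM, nor was the checkpoint protein MAD2L1, at 35.2 and 18.3 FPKM. Against 8505C wt, 15 genes of this list were down-regulated and 0 up-regulated. Among 28 genes of G1 control, 8 were down-regulated, including cyclin E1 (CCNE1, 12.9 to 1.70 FPKM), the E2F partner TFDP1 (76.1 to 14.1 FPKM), cyclin D3 (CCND3, 35.6 to 8.15 FPKM) and E2F8 (13.2 to 2.98 FPKM). In this list 3 genes were up-regulated, among them the CDK inhibitor CDKN1C (p57), from 0.878 to 14.1 FPKM, and E2F5, from 0.0524 to 3.58 FPKM.

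Of 36 kinesins compared, 5 were up-regulated (13.9%) and 4 down-regulated (11.1%), near the shares over all genes, with a median of -0.44. The mitotic motors KIF20B (28.3 to 5.02 FPKM), KIF11 (54.3 to 10.98 FPKM), KIF4A (32.4 to 7.50 FPKM) and KIFC1 (53.4 to 15.9 FPKM) were the 4 that fell. The axonal transport motor KIF5C was at 0.0117 FPKM in wt and 9.21 in PTX, above both 8505C wt (1.95 FPKM) and 8505C-PTX (2.82 FPKM). KIF26A was listed at 0 in wt and was at 2.08 FPKM in PTX.

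The tubulins that form the target of paclitaxel showed no rise at the highly expressed isotypes. Of 6 beta-tubulins, 5 had a negative fold change that did not pass the limit, such as TUBB (805 and 432 FPKM), TUBB4B (961 and 547 FPKM), TUBB6 (241 and 115 FPKM) and TUBB3 (122 and 84.0 FPKM), the neuronal isotype often studied in taxane resistance. Only TUBB4A was called up-regulated, from 0 in wt to 2.05 FPKM in PTX. Among the 8 alpha- and other tubulins, TUBA4A alone was called, and it fell from 75.01 to 7.58 FPKM, near the 5.32 FPKM of 8505C wt. Of 41 proteins that bind or sever microtubules, 8 were up-regulated (19.5%) and 3 down-regulated (7.32%), with a median of -0.06. Over all genes the shares were 15.7% and 10.2%. MAPRE3 (the plus-end protein EB3) went from 0.0950 to 9.47 FPKM, TPPP, which bundles microtubules, from 0.697 to 8.10 FPKM, VASH1, which removes the C-terminal tyrosine of alpha-tubulin, from 1.03 to 7.35 FPKM, and MAP2 from 0.351 to 2.38 FPKM. The 3 that fell were CLIP4 (8.62 to 1.35 FPKM), CKAP2 (56.7 to 12.95 FPKM) and the spindle assembly factor TPX2 (199 to 63.6 FPKM). STMN1, the microtubule-destabilizing stathmin, was at 285 FPKM in wt and 112 in PTX and was not called.

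Among ABC transporters other than ABCB1, 8 of 29 were up-regulated and 2 down-regulated. ABCA3, a lipid transporter of lamellar bodies, increased from 0.0314 to 10.1 FPKM, and its close relative ABCA2 from 6.51 to 53.5 FPKM. ABCA1, the cholesterol and phospholipid exporter, was at 6.90 FPKM in wt, 0.0120 in PTX and 0.00583 in 8505C wt, and was listed at 0 in 8505C-PTX. The drug efflux pump ABCC1 was not called, at 14.6 and 17.0 FPKM.

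Drug-metabolizing enzymes changed often and in both directions, with 15 of 40 up-regulated and 7 down-regulated. AKR1C2 and AKR1C3, neighbours of AKR1C1 in sequence and on chromosome 10, increased from 0.208 to 7.98 FPKM and from 4.82 to 68.6 FPKM. SULT1A1, a phenol sulfotransferase, went from 0.0771 to 5.69 FPKM, and the glutathione transferase GSTM3 was listed at 0 in wt and was at 22.1 FPKM in PTX and 13.4 in 8505C wt. Falls were found for MGST1, a microsomal glutathione transferase (93.9 to 7.18 FPKM), and CYP1B1, a cytochrome P450 that oxidizes estradiol (10.4 to 0.439 FPKM). GSTM4 was at 4.07 FPKM in wt and was listed at 0 in the other 3 libraries. SLCO1B3, which can carry taxanes into cells, was at 4.64 FPKM in wt and was listed at 0 in PTX. Members of the AKR1C, GSTM, SULT1A, metallothionein, IFITM, HLA, keratin and placental alkaline phosphatase families share long identical stretches, and how their reads were divided is not known, so single members of these families are uncertain.

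Of 45 NRF2-linked antioxidant genes, 8 were up-regulated (17.8%) and 3 down-regulated (6.67%), against 15.7% and 10.2% of all genes, with a median of 0.06. The AKR1C genes had the largest of these increases, and the peroxiredoxin PRDX5 went from 69.9 to 380 FPKM. AKR1B10, an aldose reductase-like enzyme, fell from 4.63 to 0.431 FPKM in SW1736, while it was listed at 0 in 8505C wt and was at 0.508 FPKM in 8505C-PTX.

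Metallothioneins are small cysteine-rich proteins that bind zinc, copper and cadmium, and their genes lie together on chromosome 16. Of 7 genes in this list that were compared, 5 were down-regulated and 0 up-regulated, with a median of -3.90. MT1L was at 70.3 FPKM in wt and MT1M at 4.92, and both were listed at 0 in the other 3 libraries, as MT1E was in both 8505C libraries. MT2A, the most abundant member, fell from 1957 to 653 FPKM, while it was at 331 FPKM in 8505C wt and 904 in 8505C-PTX. MT1X was the exception, with 57.2 FPKM in wt and 113 in PTX, and with 18.7 FPKM in 8505C wt and 276 in 8505C-PTX. With 8505C wt as the reference, the list held 2 up-regulated genes and 1 down-regulated gene, so the direction of the list turned with the wt library chosen.

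Metallothionein genes are known to be induced through metal response elements bound by MTF1, whose transcript was not called (4.06 and 2.89 FPKM). The 250 bases before the start of MT2A (chr16:56608334-56608583) and MT1X (chr16:56682220-56682469), both on the plus strand of GRCh38.p14 (RefSeq), are printed because they are the 2 metallothioneins compared that have a promoter entry. MT1E, MT1L and MT1M have no entry and were not searched. Capitals mark the core TGCACNC or TGCGCNC on either strand.
MT2A: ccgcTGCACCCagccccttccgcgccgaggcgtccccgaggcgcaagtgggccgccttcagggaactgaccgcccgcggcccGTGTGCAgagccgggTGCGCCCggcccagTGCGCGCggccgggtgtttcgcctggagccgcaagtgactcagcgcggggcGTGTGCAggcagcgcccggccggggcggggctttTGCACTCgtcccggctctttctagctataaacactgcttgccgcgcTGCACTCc
MT1X: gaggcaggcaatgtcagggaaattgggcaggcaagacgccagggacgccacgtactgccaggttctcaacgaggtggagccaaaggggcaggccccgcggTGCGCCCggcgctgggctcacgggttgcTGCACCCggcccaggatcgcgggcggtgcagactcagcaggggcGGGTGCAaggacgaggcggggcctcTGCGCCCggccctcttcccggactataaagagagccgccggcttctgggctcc
The MT2A window held 7 matches and the MT1X window 4, and 24.8% of all promoters held at least 1.

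Cholesterol and fatty acid synthesis genes were among the lists with the most increases. Of 55 genes compared, 21 were up-regulated (38.2%, against 15.7% of all genes), 4 were down-regulated and 43 had a positive fold change, with a median of 1.08. STARD4, a cytosolic sterol carrier, increased from 0.309 to 15.2 FPKM (log2 fold change 5.22), and INSIG1, the endoplasmic reticulum protein that retains the SREBP complex, from 6.46 to 123 FPKM (4.23). Squalene epoxidase (SQLE) went from 8.16 to 78.6 FPKM (3.25) and the sterol C4 methyl oxidase MSMO1 from 6.45 to 57.7 FPKM (3.14). All 4 genes are known targets of SREBP2. Several pathway members did not pass the limit, such as the isomerase EBP (110 and 41.5 FPKM) and lanosterol synthase LSS (14.3 and 15.8 FPKM). The falls included ABCA1, the lipolysis inhibitor G0S2 (110 to 0.345 FPKM) and the fatty acid elongase ELOVL2 (8.57 to 0.0791 FPKM). Against 8505C wt, the list held 13 increases and 1 decrease, and the 8505C pair itself had 14 increases and 1 decrease.

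**Figure D3:**
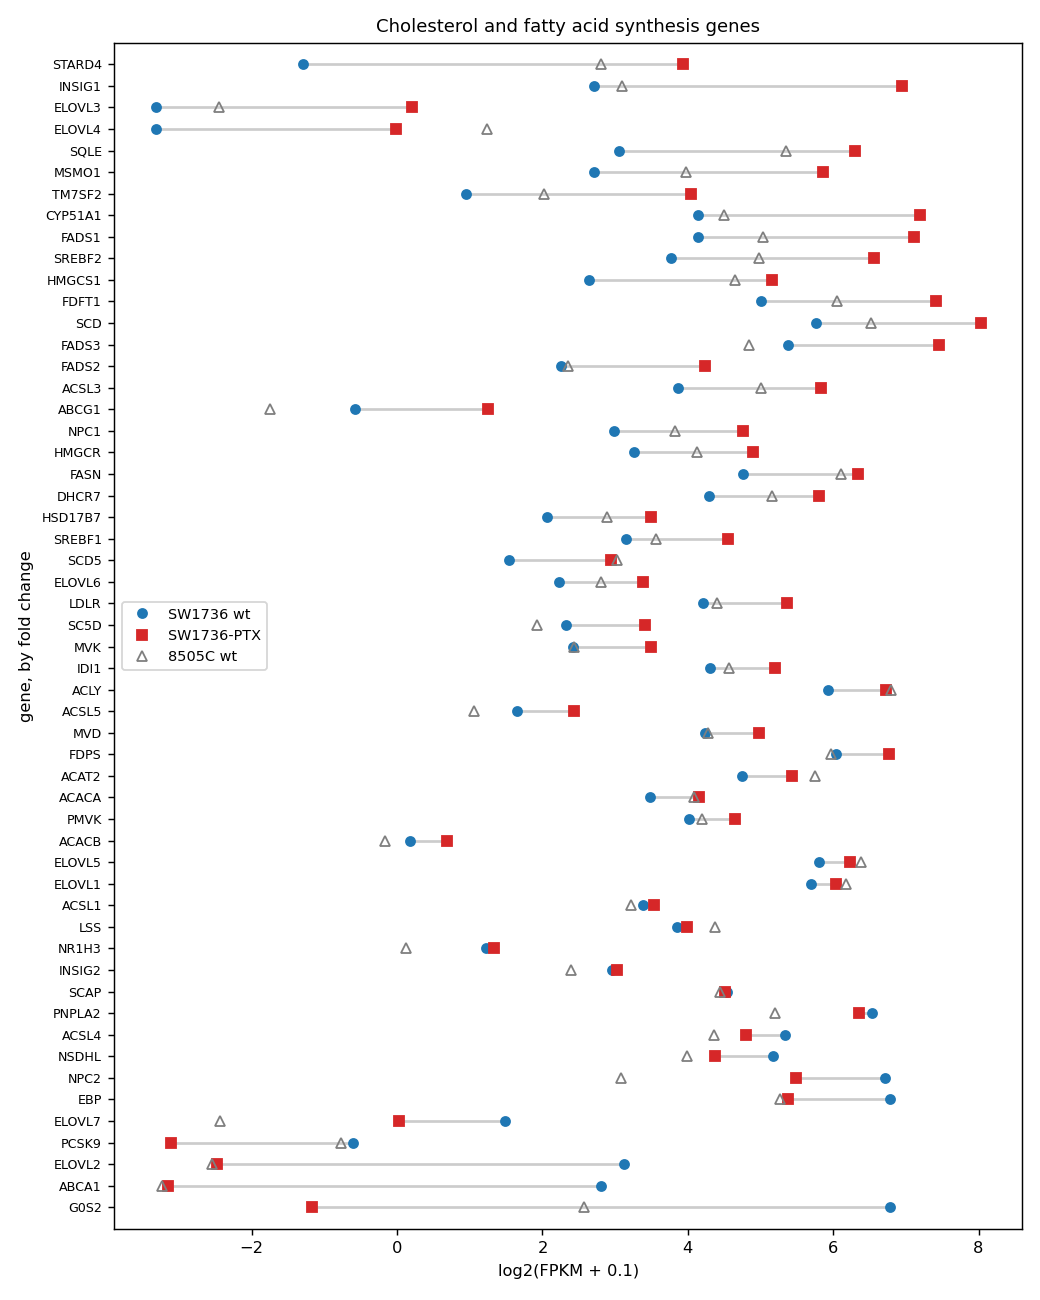
Levels of the cholesterol and fatty acid genes compared, with 1 of the 55 not drawn, as log2(FPKM + 0.1) (x axis), in SW1736 wt (circles), SW1736-PTX (squares) and 8505C wt (open triangles), ordered by the SW1736 fold change with a line joining both SW1736 libraries. STARD4 and INSIG1 at the top show the largest increases, and ABCA1 and G0S2 at the bottom the largest decreases.

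Interferon-stimulated genes were up-regulated in 20 of 49 cases and down-regulated in 5, with a median of 1.08. Besides IFITM2, its neighbour IFITM1 increased from 11.3 to 286 FPKM, EPSTI1 from 0.268 to 8.19 FPKM and the exonuclease ISG20 from 0.281 to 3.61 FPKM. The 2'-5' oligoadenylate synthetases OASL (3.22 to 0.268 FPKM) and OAS2 (5.44 to 0.608 FPKM) fell, as did the dNTPase SAMHD1 (38.2 to 11.5 FPKM) and the tetherin gene BST2 (37.7 to 11.9 FPKM). ISG15, a common readout of interferon signalling, was not called, at 19.1 and 22.1 FPKM. Against 8505C wt, 20 genes of the list were up-regulated and 0 down-regulated, beside 2091 and 723 over all genes.

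All 21 listed genes of HLA class I antigen presentation were compared, and 10 were up-regulated, 0 down-regulated and 19 had a positive fold change, with a median of 1.21. HLA-F and HLA-G, non-classical class I genes, were listed at 0 in wt and were at 28.5 and 3.42 FPKM in PTX. The pseudogene HLA-H went from 8.35 to 37.5 FPKM and the peptide editor TAPBPL (TAPBPR) from 1.65 to 7.51 FPKM. The light chain gene B2M, at 365 and 843 FPKM, and HLA-C, at 218 and 378 FPKM, were not called. The 8505C pair had 6 increases and 1 decrease in this list, and against 8505C wt PTX had 7 up-regulated and 0 down-regulated. In class II, 3 of 8 genes were up-regulated and 2 down-regulated at low levels, such as HLA-DPA1, which was listed at 0 in wt and was at 2.25 FPKM in PTX.

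Of 35 genes of the endoplasmic reticulum and integrated stress responses, 7 were up-regulated and 1 down-regulated, with a median of 0.52. The transcription factor CEBPB went from 3.67 to 59.0 FPKM, the mTORC1 inhibitor DDIT4 from 3.17 to 31.9 FPKM, the glutathione-degrading enzyme CHAC1 from 0.710 to 6.55 FPKM and the ER degradation factor HERPUD1 from 17.8 to 137 FPKM. ATF5 was the only gene of the list that fell, from 25.5 to 4.08 FPKM. The chaperone HSPA5 (BiP), at 237 and 529 FPKM, and ATF4 itself, at 189 and 511 FPKM, were not called. Against 8505C wt the list again had 7 up-regulated genes and 0 down-regulated.

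Among 46 genes of amino acid synthesis and transport, 7 were up-regulated (15.2%) and 4 down-regulated (8.70%), near the shares over all genes. ASS1, which makes argininosuccinate for arginine synthesis, was at 0.411 FPKM in wt, 273 in PTX, 7.09 in 8505C wt and 99.0 in 8505C-PTX. KYNU, a kynureninase of tryptophan breakdown, increased from 0.105 to 6.84 FPKM, PYCR1 of proline synthesis from 25.3 to 106 FPKM and the taurine carrier SLC6A6 from 5.55 to 26.6 FPKM. The glutamine carrier SLC38A5 (22.2 to 0.0347 FPKM) and the glutamate carrier SLC1A3 (5.69 to 0.0626 FPKM) fell, and so did ODC1 of polyamine synthesis (122 to 41.6 FPKM) and the large neutral amino acid carrier SLC7A5 (141 to 48.8 FPKM).

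Hypoxia-response genes and glycolytic enzymes, 53 in all, included 11 up-regulated and 7 down-regulated genes, with a median of 0.40. STC1, a calcium-regulating hormone, increased from 2.04 to 37.1 FPKM and the glucose carrier SLC2A12 from 0.997 to 4.89 FPKM, in addition to NDRG1 and ADM. Carbonic anhydrase CA12 was at 4.51 FPKM in wt and was listed at 0 in PTX. The phosphofructokinase PFKL (82.2 to 20.1 FPKM), the regulatory kinase PFKFB3 (30.2 to 9.95 FPKM) and the lymphangiogenic ligand VEGFC (18.96 to 4.82 FPKM) fell. The core enzyme GAPDH was at 2769 and 2784 FPKM, and VEGFA was at 17.6 and 15.6 FPKM.

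Of 14 genes of laminins and other basement membrane proteins, 6 were up-regulated and 4 down-regulated, with a median of 1.15. The chain LAMA5, the main alpha chain of adult basement membranes, was at 0.430 FPKM in wt, 129 in PTX, 68.2 in 8505C wt and 138 in 8505C-PTX. LAMA1 increased from 0.212 to 15.3 FPKM, the linker NID1 from 6.54 to 49.1 FPKM, and LAMC3 was listed at 0 in wt and was at 2.80 FPKM in PTX. LAMB3, a beta chain of epithelial laminin (52.8 to 6.30 FPKM), fell, as did LAMA4 (32.9 to 0.387 FPKM) and perlecan (HSPG2, 7.57 to 2.04 FPKM).

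Matrix metalloproteinases, their inhibitors and ADAMTS proteases had 15 up-regulated and 6 down-regulated genes of 27, with a median of 1.88. The interstitial collagenase MMP1 was listed at 0 in wt and was at 254 FPKM in PTX, 2630 in 8505C wt and 2173 in 8505C-PTX. MMP28 was listed at 0 in both wt libraries and was at 9.93 FPKM in PTX and 7.07 in 8505C-PTX, and the inhibitor TIMP3 went from 0.297 to 14.4 FPKM. Besides MMP14, the membrane-type protease MMP16 (3.76 to 0.0109 FPKM) and the aggrecanases ADAMTS1 (78.2 to 3.17 FPKM) and ADAMTS5 (8.38 to 0.153 FPKM) fell. In the plasminogen and serpin list, 7 of 19 genes were up-regulated and 5 down-regulated. The protease inhibitor SERPINE2 increased from 18.5 to 269 FPKM and SERPINI1 (neuroserpin) from 0.0994 to 17.4 FPKM, while the granzyme B inhibitor SERPINB9 fell from 7.51 to 0.0353 FPKM.

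Cell-cell adhesion genes changed at many single members. Of 22 cadherins outside the EMT list, 10 were up-regulated and 2 down-regulated, with a median of 1.42. The desmosomal cadherin DSC3 was listed at 0 in wt and was at 25.2 FPKM in PTX, 18.0 in 8505C wt and 17.2 in 8505C-PTX. CDH13 (56.5 to 0.158 FPKM) and CDH11 (16.3 to 0.105 FPKM), cadherins of mesenchymal and endothelial cells, were lost, and both were listed at 0 in 8505C wt. In the 10 cadherin genes that increased, the lower library was at most 0.253 FPKM, and 0 of them passed when both libraries had to exceed 0.5 FPKM. Among 16 tight junction genes, 4 were up-regulated and 3 down-regulated. JAM3 increased from 0.696 to 21.9 FPKM, against 2.65 FPKM in 8505C wt and 3.21 in 8505C-PTX, and the cingulin-like CGNL1 from 0.330 to 7.79 FPKM.

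Regulators and markers of the epithelial-mesenchymal transition were split, with 6 of 19 up-regulated and 6 down-regulated. TWIST1 and FOXC2, mesenchymal transcription factors, were listed at 0 in wt and were at 8.06 and 23.2 FPKM in PTX. ZEB2 went from 0.386 to 5.54 FPKM. In untreated 8505C wt, TWIST1 was at 6.37 FPKM, FOXC2 at 25.7 and ZEB2 at 7.30, so SW1736 wt was the low library for these genes. Of the 12 called genes of this list, 6 lay within 1.5 log2 units of 8505C wt in PTX. SNAI2 (Slug) fell from 4.72 to 1.05 FPKM, and fibronectin (FN1) from 1133 to 103 FPKM. The keratin pair KRT8 and KRT18 of simple epithelia increased from 331 to 973 FPKM and from 257 to 1437 FPKM, in contrast to KRT19. Contractile genes had a median of -0.85, with 5 of 30 down-regulated and 3 up-regulated. Besides MYL9, the falls were at transgelin (TAGLN, 58.2 to 2.89 FPKM), myosin light chain kinase (MYLK, 35.6 to 7.41 FPKM) and the focal adhesion protein zyxin (ZYX, 160 to 37.0 FPKM), and beta-actin (ACTB) was not called, at 4905 and 1945 FPKM.

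Receptor tyrosine kinases outside the ERBB group changed in both directions, with 9 of 24 up-regulated and 6 down-regulated. The hepatocyte growth factor receptor MET fell from 113 to 12.4 FPKM, against 42.0 FPKM in 8505C wt and 33.5 in 8505C-PTX. FGFR2, a fibroblast growth factor receptor, fell from 13.7 to 0.166 FPKM, while its paralogs FGFR3 (0.0127 to 7.30 FPKM) and FGFR4 (0.154 to 8.24 FPKM) increased. FLT1 (VEGF receptor 1) was listed at 0 in wt and was at 11.2 FPKM in PTX and 15.6 in 8505C wt. RET, the GDNF receptor rearranged in papillary thyroid carcinoma, was listed at 0 in wt and was at 2.29 FPKM in PTX, 0.0109 in 8505C wt and 0.158 in 8505C-PTX. Against 8505C wt only 4 genes of this list were up-regulated and 2 down-regulated.

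MAPK output genes had 5 up-regulated and 5 down-regulated members of 43 (11.6% each, against 15.7% and 10.2% of all genes). The AP-1 subunit FOSL1 fell from 423 to 54.0 FPKM and the feedback inhibitor SPRY2 from 23.1 to 4.58 FPKM, while the phosphatase DUSP1 increased from 10.2 to 277 FPKM. DUSP1 was at 206 FPKM in 8505C wt and 187 in 8505C-PTX. The ERBB feedback inhibitor ERRFI1 (MIG6) fell from 27.0 to 3.86 FPKM, and the ligand amphiregulin (AREG) went from 0.134 to 3.18 FPKM. In the JAK-STAT list, 5 of 33 genes were up-regulated (15.2%) and 2 down-regulated (6.06%), at or below the shares over all genes. The cytokines LIF (47.1 to 0.106 FPKM) and IL11 (3.98 to 0.464 FPKM) were the 2 genes that fell, and the feedback gene SOCS2 increased from 1.61 to 9.56 FPKM.

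Among 52 TGF-beta, activin and BMP genes, 13 were up-regulated and 7 down-regulated. The inhibin subunits INHBA (121 to 0.253 FPKM) and INHBB (16.2 to 0.169 FPKM), which form the activins, were lost, and neither exceeded 0.515 FPKM in 8505C. The latent TGF-beta binding protein LTBP2 fell from 28.3 to 0.495 FPKM. GDF15, a stress-induced cytokine, increased from 0.141 to 7.93 FPKM and BMP6 from 0.0351 to 4.21 FPKM. Against 8505C wt, 13 genes were up-regulated and 1 was down-regulated. Of 37 Wnt genes, 8 were up-regulated and 5 down-regulated. The antagonist DKK1 fell from 193 to 25.9 FPKM, the R-spondin receptor LGR4 from 11.3 to 1.23 FPKM and the ligand WNT5B from 30.3 to 5.92 FPKM. Among the increases, SFRP1 was listed at 0 in wt and was at 353 FPKM in PTX. WNT9A went from 0.287 to 5.76 FPKM and WNT10B from 0.158 to 2.90 FPKM. With 8505C wt as the reference, 0 Wnt genes were down-regulated and 10 were up-regulated. Increases outnumbered decreases over all genes as well with this reference (2091 and 723).

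In the YAP/TAZ list, 5 of 35 genes were up-regulated (14.3%) and 3 down-regulated (8.57%), against 15.7% and 10.2% of all genes. NF2 (merlin), an upstream activator of the Hippo kinases, was at 53.1 FPKM in wt and 2.62 in PTX, and at 6.28 FPKM in 8505C wt and 7.61 in 8505C-PTX. The target gene ANKRD1 increased from 6.86 to 96.1 FPKM and the TEAD cofactor VGLL3 from 1.02 to 22.9 FPKM. Other target genes, CTGF (266 and 337 FPKM) and CYR61 (306 and 550 FPKM), were not called, nor was YAP1 (29.9 and 23.2 FPKM).

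Of 10 HOX genes compared, 7 were up-regulated and 1 down-regulated, with a median of 2.79. HOXC10 and HOXB9 were listed at 0 in wt and were at 13.5 and 5.74 FPKM in PTX, and HOXC9 went from 0.0705 to 4.73 FPKM and HOXC6 from 0.222 to 2.19 FPKM. Imprinted genes were up-regulated in 10 of 25 cases and down-regulated in 6. PEG10 (59.9 to 0.304 FPKM) and its neighbour SGCE (30.2 to 0.151 FPKM), paternally expressed genes of one locus on chromosome 7, fell together, and both were listed at 0 in 8505C wt and 8505C-PTX. MEST, another paternally expressed gene of chromosome 7, fell from 11.8 to 0.00653 FPKM, whereas the 8505C pair went from 0.879 to 8.69 FPKM. SNURF was listed at 0 in wt and was at 31.5 FPKM in PTX, 18.96 in 8505C wt and 50.4 in 8505C-PTX. Its host locus partner SNRPN and the noncoding RNA H19 were likewise listed at 0 in wt, and were at 3.26 and 5.55 FPKM in PTX. SNURF and SNRPN overlap, and how their reads were divided is not known.

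Galectins and alkaline phosphatases had the highest median of the 46 lists (2.87), with 6 of 8 genes up-regulated and 0 down-regulated. The placental phosphatases ALPP and ALPPL2 were listed at 0 in wt and were at 81.6 and 37.5 FPKM in PTX, 0.637 and 0.120 in 8505C wt, and 77.9 and 36.6 in 8505C-PTX. LGALS1 (galectin 1) increased from 1239 to 4568 FPKM, and here 8505C-PTX was at 1248 FPKM. LGALS3BP, a secreted galectin ligand, went from 44.5 to 393 FPKM. Among 30 nuclear receptors, 6 were up-regulated and 0 down-regulated, led by RARB (0.0333 to 9.84 FPKM). Of 19 stemness markers and aldehyde dehydrogenases, 7 were up-regulated (36.8%) and 1 down-regulated (5.26%), against 15.7% and 10.2% of all genes. CD24 went from 0.112 to 161 FPKM, while it was at 375 FPKM in 8505C wt and 592 in 8505C-PTX. The intermediate filament gene NES (nestin) went from 3.14 to 20.9 FPKM, and the retinaldehyde dehydrogenase ALDH1A3 fell from 47.1 to 4.23 FPKM.

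Of 84 cytosolic ribosomal protein genes, 1 was up-regulated (RPL37, 413 to 1177 FPKM) and 1 down-regulated (RPL22L1, 11.8 to 3.19 FPKM), with a median of 0.27. Nuclear-encoded respiratory chain genes had 1 up-regulated and 5 down-regulated members of 62 (NDUFB2, 122 to 25.5 FPKM, and CYCS, 56.2 to 13.2 FPKM), with a median of -0.17. Of 44 proteasome genes, 4 were down-regulated. The chaperone PSMD5 fell from 29.7 to 0.119 FPKM and was at 0.0143 FPKM in 8505C-PTX, against 4.74 FPKM in 8505C wt. The other three were the regulatory particle subunits PSMC2 (50.5 to 14.4 FPKM) and PSMD2 (417 to 81.8 FPKM) and the assembly chaperone PSMG1 (80.2 to 15.9 FPKM). Of 40 mitochondrial SLC25 carriers, 3 were up-regulated and 5 down-regulated, such as the aspartate-glutamate carrier SLC25A13 (21.7 to 2.83 FPKM), and of 33 heat shock genes, 3 were up-regulated and 5 down-regulated, such as HSPA14 (40.6 to 9.19 FPKM) and CRYAB (0.239 to 4.39 FPKM). Of 18 BCL2 family genes, 4 were up-regulated (22.2%) and 1 down-regulated (5.56%), against 15.7% and 10.2% of all genes, with a median of 0.22. The increases included the pro-apoptotic BH3-only genes BMF (1.04 to 4.13 FPKM), BBC3 (PUMA, 2.47 to 8.59 FPKM) and BCL2L11 (BIM, 3.85 to 11.4 FPKM). BID was down-regulated (26.7 to 8.002 FPKM), whereas the survival genes BCL2L1 (85.1 and 84.2 FPKM) and MCL1 (49.9 and 62.8 FPKM) were not called.

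The genes private to the SW1736 pair, called there and within 0.5 log2 units in the 8505C pair, numbered 320 among the up-regulated (14.3%) and 188 among the down-regulated. In PTX, most of them lay within 1.5 log2 units of 8505C wt, namely 276 of the 320 (86.2%) and 157 of the 188 (83.5%). Most names of the series did so too, since 20.2% of the 14692 lay beyond this limit. Among all called genes, 42.0% of the increases and 65.5% of the decreases lay within it. Both pairs shared 981 up-regulated and 320 down-regulated genes, and 57 up-regulated and 87 down-regulated genes were called in the opposite direction in 8505C. A further 249 up-regulated and 405 down-regulated genes were not expressed highly enough in 8505C to be compared there. All these counts use the same PTX library.

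Among the 8 private genes with the largest increases, GJA1 (the gap junction protein connexin 43) was at 0.102 FPKM in wt, 71.1 in PTX, 56.4 in 8505C wt and 71.7 in 8505C-PTX. LAMP3, a lysosomal protein of dendritic cells and type II pneumocytes, was listed at 0 in wt and was at 31.8, 35.8 and 37.1 FPKM in the other libraries. TOX, an HMG-box factor of T-cell development, was at 0.0658 FPKM in wt, 41.5 in PTX, 24.9 in 8505C wt and 23.5 in 8505C-PTX. For GJA1, LAMP3 and TOX wt was the low library and the remaining 3 did not differ by more than the limit. This did not hold for MMP1, whose 254 FPKM in PTX lay below both 8505C libraries, nor for TM4SF18, at 26.1 FPKM in PTX, 8.46 in 8505C wt and 6.06 in 8505C-PTX. SFRP1 was at 353 FPKM in PTX, 127 in 8505C wt and 125 in 8505C-PTX. The private decreases were led by the proteoglycan versican (VCAN, 36.8 to 0.468 FPKM), the ER calcium-binding protein RCN3 (40.1 to 1.68 FPKM) and NF2. DLC1, a GTPase-activating protein, differed from these in that PTX, at 3.87 FPKM, lay below wt (36.8 FPKM), 8505C wt (32.4 FPKM) and 8505C-PTX (26.7 FPKM).

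**Figure D4:**
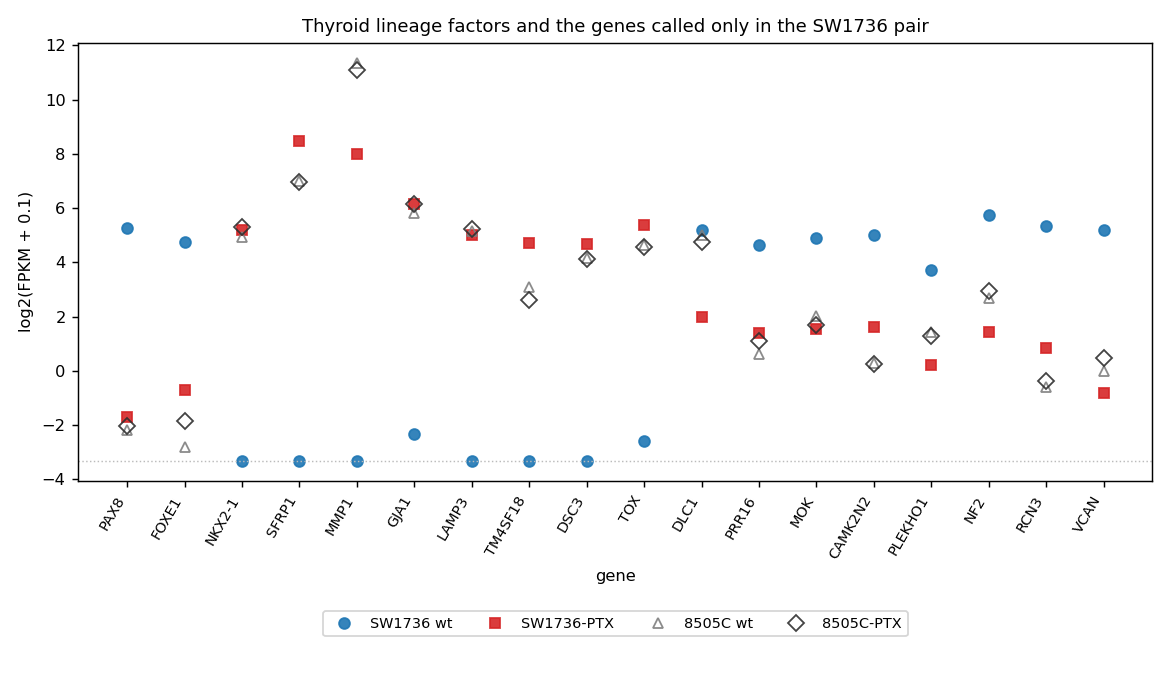
Levels, as log2(FPKM + 0.1) (y axis), of 3 thyroid lineage factors and of the private genes with the largest changes (x axis) in the 4 libraries, with the dotted line at 0 FPKM. SW1736 wt (filled circles) lies away from the other 3 libraries for most genes, whereas for DLC1 SW1736-PTX (filled squares, 3.87 FPKM) is the low library.

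A smaller set separated PTX from all other libraries by more than 1.5 log2 units in the same direction. It held 262 of the up-regulated genes (11.7%) and 68 of the down-regulated genes (4.71%). MAGEB2, a cancer-testis antigen, was listed at 0 in wt and was at 72.5 FPKM in PTX, 0.870 in 8505C wt and 16.4 in 8505C-PTX. XAGE2, another cancer-testis antigen, was listed at 0 in wt and was at 16.8 FPKM in PTX, 1.12 in 8505C wt and 2.17 in 8505C-PTX. The secreted glycoprotein OLFM1 was listed at 0 in wt and was at 66.2 FPKM in PTX, 0.408 in 8505C wt and 3.29 in 8505C-PTX. Other members were the adhesion receptor ADGRL2 (22.6 FPKM in PTX and at most 2.80 elsewhere), PLXDC2 (18.3 FPKM, at most 1.70 elsewhere), TM4SF18 (26.1 FPKM, at most 8.46 elsewhere) and EPDR1 (15.1 FPKM, at most 4.59 elsewhere).

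The 8 largest decreases of this set included LIF, MMP14, GNG11 (48.8 FPKM in wt, 0.120 in PTX, 2.84 in 8505C wt) and MEST. They also included PBDC1, BTG3, NRIP1 and HSPA13, each above 5 FPKM in all other libraries. PBDC1, on chromosome X, was at 30.5 FPKM in wt, 22.2 in 8505C wt and 5.34 in 8505C-PTX, and was listed at 0 in PTX. The other three were neighbours on chromosome 21.

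When 12130 protein-coding genes above 1 FPKM in at least 1 library were put in chromosomal order (hg38), the region near the start of 21q was at or near 0 in PTX alone. The limits for such stretches, and the genes named from them below, were chosen after the values had been seen. The chaperone HSPA13 (chr21:14371116-14383188) was at 16.8 FPKM in wt, 0.0452 in PTX, 23.9 in 8505C wt and 7.02 in 8505C-PTX. The nuclear receptor corepressor NRIP1 (chr21:14961235-15064805) was at 18.4 FPKM in wt, 0.0243 in PTX, 10.6 in 8505C wt and 6.78 in 8505C-PTX. The deubiquitinase USP25 was at 7.37 FPKM in wt and was listed at 0 in PTX, with 14.1 and 8.01 FPKM in 8505C wt and 8505C-PTX. Thus 3 consecutive genes were lost in this library and kept in both 8505C libraries. Continuing along the arm, CXADR, the antiproliferative gene BTG3 (24.9 FPKM in wt, 26.7 in 8505C wt, 6.49 in 8505C-PTX) and C21orf91 (2.39, 2.60 and 1.23 FPKM in the same order) were listed at 0 in PTX. CXADR was near 0 in wt as well, at 0.0300 FPKM. The next gene in the order, MRPL39, was expressed, at 32.5 FPKM in wt, 6.68 in PTX, 26.4 in 8505C wt and 11.9 in 8505C-PTX, and APP, farther on, was at 238 and 303 FPKM in wt and PTX. The files hold no DNA measurement, and copy number was not tested.

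**Figure D5:**
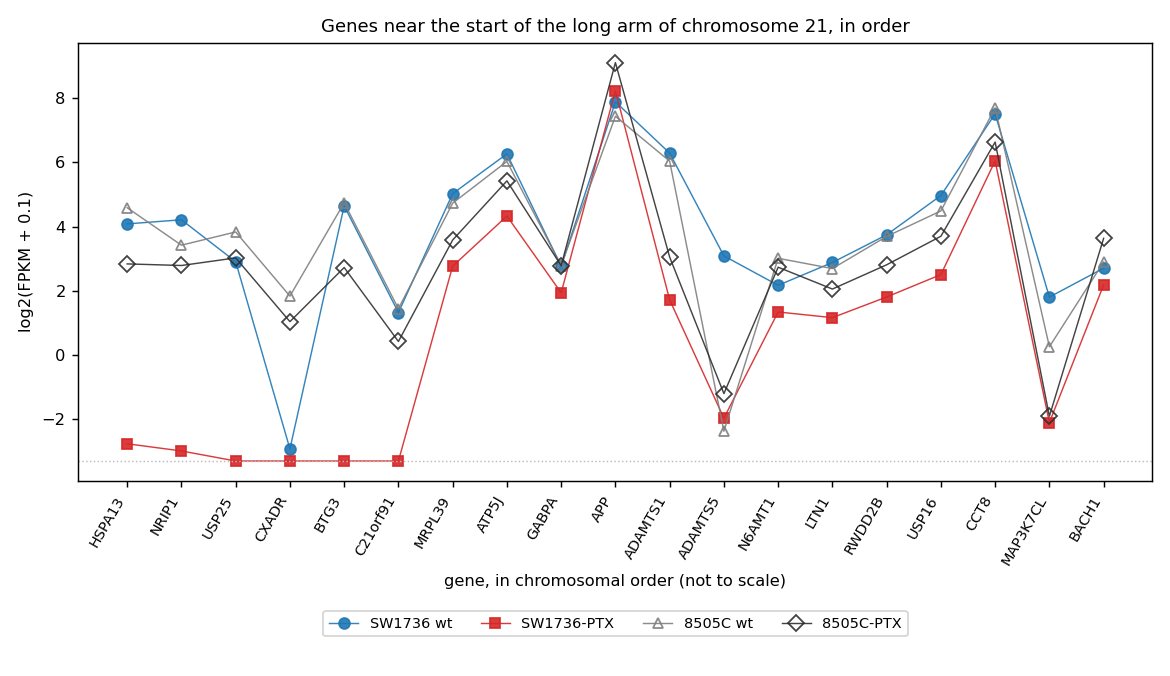
Levels, as log2(FPKM + 0.1) (y axis), of protein-coding genes near the start of 21q in chromosomal order (x axis, not to scale), in the 4 libraries, with the dotted line at 0 FPKM. The first 6 genes, HSPA13 to C21orf91, lie at or near 0 FPKM in SW1736-PTX (filled squares), and MRPL39 (6.68 FPKM) is the next gene that this library expresses.

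On chromosome 16, a block of 4 neighbouring genes (chr16:67029147-67159909) was expressed in wt alone. CBFB, the partner subunit of RUNX factors, was at 23.1 FPKM in wt and 0.0393 in PTX, B3GNT9 was at 13.04 and 0.0340 FPKM, and C16orf70 (7.84 FPKM) and TRADD (11.5 FPKM), an adaptor of the TNF receptor, were listed at 0 in PTX. All 4 were listed at 0 in both 8505C libraries. This block therefore differed from that on 21q in that PTX shared its absence with 8505C.

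Runs of at least 5 neighbouring genes called in the same direction were found 7 times for increases and 6 times for decreases. Of the 6 runs of decreases, 5 lay on the long arm of chromosome 7. All of these except the run at chr7:135092309-135977456 lay close together in 1 region, chr7:98878490-100434126, and were split by genes not called down. The longest held 9 genes (chr7:98878490-99466201, TRRAP to ATP5J2) with a median log2 fold change of -2.42, against -1.33 for the same genes in the 8505C pair. It contained the Arp2/3 subunits ARPC1A (191 to 21.7 FPKM) and ARPC1B (212 to 18.2 FPKM). MCM7 lay in a further run of 5 (chr7:100063847-100119858), in which its neighbours ZNF3 (13.9 to 4.08 FPKM), COPS6 (162 to 42.8 FPKM), AP4M1 (9.32 to 2.32 FPKM) and TAF6 (82.0 to 20.5 FPKM) fell as well. A run of 7 genes (chr7:135092309-135977456, C7orf49 to MTPN) had a median of -1.93.

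In the opposite direction, 5 neighbouring genes farther along chromosome 7 (chr7:150247212-150693640) increased, and all 5 lay above every other library. REPIN1, a zinc finger gene, was at 24.2 FPKM in wt, 79.7 in PTX, 25.8 in 8505C wt and 19.5 in 8505C-PTX. LRRC61 was listed at 0 in wt and was at 21.3 FPKM in PTX, 6.73 in 8505C wt and 6.96 in 8505C-PTX, and ZNF775 was at 3.34 FPKM in wt, 10.0 in PTX, 2.47 in 8505C wt and 2.42 in 8505C-PTX. The median over the run was 4.24 in SW1736 and -0.03 in 8505C. Likewise, the salivary cystatins CST4, CST1 and CST2 (chr20:23685640-23826675) were listed at 0 in both wt libraries and were at 3.70, 7.24 and 2.93 FPKM in PTX, against 0.688, 1.56 and 0.458 FPKM in 8505C-PTX. On chromosome 11, a run of 7 genes around IFITM1, IFITM2 and IFITM3 (213 to 1106 FPKM) increased in SW1736, and 6 of the 7 were up-regulated in 8505C-PTX too.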

How the data were processed

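RNA from 1 culture each of SW1736 wt, SW1736-PTX, 8505C wt and 8505C-PTX was sequenced in single-end reads of 75 bases. The authors aligned the reads to hg38 and deposited StringTie gene abundance tables that hold FPKM, TPM and mean coverage per gene, and the annotation behind them is not given in the sources used here. Coverage as deposited was used only to estimate the number of reads, and TPM as deposited only as an alternative to FPKM. FPKM of rows with the same gene name were summed with Python 3.11.15, NumPy 2.4.6 and pandas 2.3.3. A name was kept when either library of a pair exceeded 0.5 FPKM, and log2 fold changes used a pseudocount of 0.1 FPKM, which understates changes of low genes. Genes listed at 0 enter list medians through the pseudocount. With 1 library per condition, no error, interval or p-value was calculated, and the scripts were tested on simulated data. Genes were named by rule: ABCB1, the 10 largest changes in each direction among genes above 0.5 FPKM in both libraries and at least 10 FPKM in the higher, up to 4 called genes per list and direction at 2 FPKM or more together with examples that were not called, the 8 largest private and separate changes in each direction, and genes called in opposite directions. The gene lists and members were chosen with earlier results of these data known. Alternatives were TPM, other pseudocounts, filters and limits, centring, the highest row per name and 8505C wt as the reference. Promoters came from RefSeq. Figures were drawn with matplotlib 3.10.9. A few genes that met the naming rule or belong to a list are not reported here.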

Additional observations from a re-analysis of the deposited data

Results flagged for a closer look

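For 16 of the genes named in the comparison, the SW1736 and the 8505C pair were called in opposite directions. With 1 library per condition, the difference between the pairs was not tested. Between both PTX libraries, COL1A1, FN1, SNAI2, HSF4, AKR1B10, ALDH1A3, OAS2 and SERPINA1 stayed within 1.5 log2 units. Given their fall in SW1736 and rise in 8505C, this requires each to be higher in SW1736 wt than in 8505C wt. Examples are COL1A1 (153 against 0.217 FPKM) and SNAI2 (4.72 against 0.202 FPKM). For the remaining genes of the 16, the PTX libraries differed beyond this limit, such as POSTN (-7.32, SW1736-PTX over 8505C-PTX) and AREG (2.42). Several values rest on levels near or below the pseudocount of 0.1 FPKM and depend on it. FLT1 was listed at 0 in SW1736 wt and was at 11.2 FPKM in SW1736-PTX, and AKR1B10 was listed at 0 in 8505C wt and was at 0.508 FPKM in 8505C-PTX. OAS2 was at 0.0587 FPKM and HSF4 at 0.130 in 8505C wt, and MEST at 0.00653 in SW1736-PTX. In 8505C-PTX the level reached was 0.884 FPKM for OAS2, 0.755 for HSF4, 1.112 for COL1A1 and 1.27 for SNAI2. Matrix and adhesion genes were among those that fell in SW1736 and rose in 8505C. The log2 fold change in SW1736 and then in 8505C was -6.07 and 1.94 for COL1A1, -3.45 and 1.56 for FN1, -3.37 and 4.22 for POSTN, -1.84 and 2.53 for HSPG2, -6.08 and 1.75 for LAMA4, and -5.58 and 1.93 for LTBP2. The imprinted gene MEST had -6.80 and 3.17, the transcription factors SNAI2 and HSF4 had -2.07 and 2.18, and -3.10 and 1.90, and the polarity gene PRICKLE1 had -5.03 and 2.06. Enzymes and an inhibitor of proteases followed, with -3.16 in SW1736 for AKR1B10, and -3.45 and 2.47 for ALDH1A3, -2.97 and 2.63 for OAS2, and -2.06 and 2.70 for SERPINA1. The opposite order was found for the ligand AREG, with 3.81 and -4.63, and for the receptor FLT1, with 6.82, a value set by the pseudocount and no measured fold, and -2.34.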

How the results depend on the processing

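No named gene changed the sign of its fold change with TPM or with the highest row per name. The other alternatives run on the named genes, namely pseudocounts, limits and centring, could not have changed it. The filters and 8505C wt as the reference were not run on the named genes. With a pseudocount of 1, 1222 genes were up-regulated and 841 down-regulated, and 97 and 18 lay apart from the other 3 libraries. When both libraries had to exceed 0.5 FPKM, these counts were 850, 851, 67 and 10, and 153 up-regulated genes were private. With any level above 0 accepted, 358 down-regulated genes were private. At a limit of 1, 2591 genes were down-regulated, 594 up- and 580 down-regulated genes were private, and 510 and 181 lay apart. At a limit of 2, 875 genes were down-regulated, 73 of them private, and 143 and 42 lay apart. With 8505C wt as the reference, an alternative chosen after the data had been seen, 2091 genes were up-regulated and 723 down-regulated, and the metallothionein list turned from 0 up- and 5 down-regulated to 2 and 1. Of the 283 named genes, 40 fell below a limit of 2, 19 below the limit with a pseudocount of 1 and 3 with TPM. Of 98 list counts, 55 moved by over 1.5 times when both libraries had to exceed 0.5 FPKM and 44 with 8505C wt as the reference. The comparison within SW1736 has 1 library per condition and comes from no test. A paired fit over both lines was not run. The cause of these shifts was not tested.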
